A study of Anopheles gambiae with 16 samples.

Results

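The X chromosome of the malaria mosquito Anopheles gambiae was represented by 1403 probe sets, chosen as every array ID that starts with Ag.X., out of 16884 mosquito probe sets whose ID starts with Ag. (8.31%). The other 15481 Ag. probe sets, of the arms 2L, 2R, 3L and 3R and of a group marked UNKN, served as background. The chromosome arm was read from the ID prefix, a reading that no source used here records, and coordinates were not used here. For scale, the gene table given for the species (RefSeq, assembly idAnoGambNW_F1_1) places 1171 of its 12519 protein-coding genes on the X (9.354%), but 0 of the 1403 IDs matched an entry in it, so every member is named by its probe set ID and no gene function is given.

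All animals were adult females of the G3 strain, 1 to 2 days after eclosion and naive according to the general treatment entry, and each of the 4 groups held 4 arrays that the labels call biological replicates. Heads were pooled from 40 females and carcasses, which are bodies without their heads and after bleeding, from 20 females. Circulating hemocytes, the blood cells of insects, came from hemolymph drawn by clipping the proboscis. Heads, hemocytes and 1 carcass group were biotin-labelled in 2 amplification rounds that started from 80 ng of RNA (two-round groups), and the other carcass group in 1 round from 1000 ng (one-round carcasses). The hemocyte labels conflict, giving pools of 1000 and of 500 females and, in the collection note, infected females. For head replicate 4 the source name reads carcasses of 20 females, but the remaining labels name the head, so it stayed with the heads. On the X probe sets its correlation was 0.9678 with the average of the remaining heads and 0.868 with that of two-round carcasses. Hemocytes were collected straight into a column kit buffer and the other tissues into Trizol. In comparisons with hemocytes, tissue therefore cannot be told apart from collection and extraction. Without gene names for the IDs, the tissue labels could not be checked against marker genes.

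The X is the sex chromosome of this species. Females carry a pair of X chromosomes and males an X and a Y, and dosage compensation raises X expression in males so that both sexes reach similar levels. The X also carries the ribosomal DNA, and it corresponds largely to the X of Drosophila. Since only females were measured, the arrays compare X transcripts between tissues and labellings within 1 sex.

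By the mark in the ID, 1118 X probe sets (79.7%) were marked CDS, 68 (4.85%) UTR and 217 (15.5%) carried neither mark, against 83.6%, 4.66% and 11.7% of the other Ag. probe sets. By the array maker's suffix, 1026 members ended in _at, 311 in _a_at, which stands for several transcripts of 1 gene, and 65 in _s_at, which can match several genes, with 1 more in _x_at. The _s_at share was 4.63% on the X and 8.46% elsewhere. The members fell into 1242 clusters of IDs that share the number after Ag.X., and 141 clusters held more than 1 member (302 members). Members of a cluster are therefore not independent of each other.

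The values are intensity on a linear scale, and levels and differences below are on the scale log2(intensity + 16) unless given as intensity. Background was set on each array at the 95th percentile of the probe sets whose ID starts with Pf., and lay between 8.83 and 15.28. Differences between groups were tested with limma on all Ag. probe sets and all 16 arrays, and calls required both a change of at least 2-fold and an adjusted p under 0.05 (Benjamini-Hochberg over all Ag. probe sets). The number of arrays limits the precision. In whole tissues and pooled cells, fewer cells of a type and less RNA per cell cannot be told apart.

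The X stood close to the middle of the other probe sets in every tissue. The median X level minus the median of all other Ag. probe sets was -0.0638, -0.0595, -0.0156 and 0.0202 on the 4 head arrays. It was -0.0506, -0.0031, -0.0147 and 0.0187 in two-round carcasses and -0.0061, -0.0083, -0.02 and -0.0488 in hemocytes. The 12 two-round arrays overlapped freely between tissues. The 4 one-round carcass arrays gave 0.0608, 0.0609, 0.0449 and 0.0667. All 4 lay above every two-round array, heads and hemocytes included. The group means were -0.0297 ± 0.0398 in heads, -0.0124 ± 0.029 in two-round carcasses, -0.0208 ± 0.0196 in hemocytes and 0.0583 ± 0.00933 in one-round carcasses (SD, n = 4 each).

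The position of the X near 0 depended on the UNKN probe sets, which were dim, with a median minus that of the rest of -0.994 to -0.652. Arms 2L, 2R and 3R were above the rest on all 16 arrays, by 0.0849 to 0.25, 0.195 to 0.306 and 0.0535 to 0.145. Arm 3L was nearest to the X, at 0.00594 to 0.0743. With UNKN left out of the background, the X median was below that of the other placed arms on every array, with differences of -0.179 to -0.113 in heads, -0.162 to -0.103 in two-round carcasses, -0.167 to -0.105 in hemocytes and -0.111 to -0.0414 in one-round carcasses. The one-round carcasses then still had the highest mean (-0.07), but their range overlapped those of two-round carcasses and hemocytes. Among CDS probe sets alone, the one-round carcass arrays (-0.0258 to 0.0464) lay above those of two-round carcasses (-0.111 to -0.0418) and hemocytes (-0.0772 to -0.0505) and overlapped those of heads (-0.0776 to 0.00779).

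**Figure D1:**
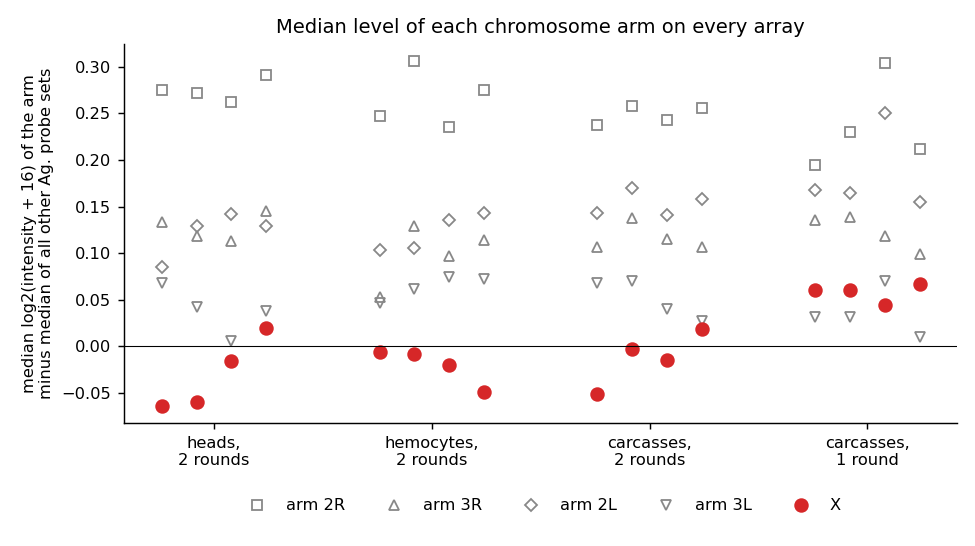
Median log2(intensity + 16) of each placed chromosome arm minus the median of all other Ag. probe sets, 1 symbol per arm and array, the 4 arrays of a group side by side in order of replicate number. The X (filled circles) lies between -0.0638 and 0.0202 on the two-round arrays and between 0.0449 and 0.0667 on the one-round carcass arrays; UNKN, at -0.994 to -0.652, is left out of the plot.

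The bright end of the X was thinner than that of the other probe sets on two-round arrays. A mean intensity of 1000 or more was reached by 46 X probe sets in heads (3.28%, against 4.52% of the others) and by 48 in two-round carcasses (3.42% against 4.78%). In hemocytes it was reached by 61 (4.35% against 5.53%). In one-round carcasses the shares were alike, with 54 members (3.85%) against 3.71%. The 90th percentile of intensity on the X was 291 in heads, 265 in two-round carcasses and 349 in hemocytes, where the others had 368, 378 and 473. In one-round carcasses it was 213 against 258, so there the X was lower at this percentile although not at 1000. The median intensities differed less, from 20 to 23.8 on the X and from 20.2 to 24.2 elsewhere. Accordingly the X, with 8.31% of the probe sets, held 5.87 to 6.12% of the summed Ag. intensity on head arrays and 6.01 to 6.22% on two-round carcass arrays. The share was 6.26 to 6.81% in hemocytes and 6.79 to 7.03% in one-round carcasses, so the 2 carcass groups did not overlap.

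Detection on the X followed detection elsewhere. On single arrays 63.2 to 65.3% of the members were above background in heads, 58.6 to 63.3% in two-round carcasses, 65.9 to 69.3% in one-round carcasses and 58.5 to 61.4% in hemocytes. On all 4 arrays of a group, 699 members were above background in heads (49.8%, against 50.5% of the others), 667 in two-round carcasses (47.5% against 48.9%) and 658 in hemocytes (46.9% against 47.9%). One-round carcasses had the most, with 765 (54.5% against 53.4%). Their background was also lower, at 8.83 to 10.02 against 12.5 to 15.3 on the two-round arrays, and its part in the larger count was not tested. On all 12 two-round arrays 504 members (35.9%) were above background, and 137 (9.76%) never rose above it on any of the 16 arrays. The corresponding shares of the others were 37.9% and 9.21%. A total of 1081 members were above background on at least 4 arrays and are called bright below.

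As elsewhere on the array, few X probe sets were above background in 1 tissue only. Above background on all 4 arrays of 1 two-round tissue and on no array of the other two-round tissues were 4 members for heads (0.285%, against 0.194% of the others), 7 for carcasses (0.499% against 0.491%) and 5 for hemocytes (0.356% against 0.233%). For heads, the brightest of these was Ag.X.753.0_CDS_at, at 112.4, 69.86, 68.21 and 76.98 on the head arrays. It lay at 2.169 to 5.375 in hemocytes, 3.36 to 8.255 in two-round carcasses and 4.078 to 11.1 in one-round carcasses. The separation of heads from hemocytes and two-round carcasses follows from the rule that chose it. One-round carcasses, outside the rule, were above background on 1 of 4 arrays and below every head array. The level of Ag.X.753.0_CDS_at in heads was at least 5.7-fold that in two-round carcasses and at least 6.25-fold that in hemocytes. Such bounds divide the bright group's geometric mean by that of, per array, the higher of background and the dim value. For hemocytes, the brightest was Ag.X.339.0_CDS_at, at 42.78, 45.17, 35.91 and 49.56 on the hemocyte arrays. It lay at 0.9237 to 2.84 in heads and 1.432 to 9.376 in two-round carcasses, which puts hemocytes at least 3.2-fold and at least 3.07-fold higher. The separation from heads and two-round carcasses follows from the rule that chose this probe set. One-round carcasses, which the rule did not use, read 1.139 to 14.11. They were above background on 1 of 4 arrays and below every hemocyte array. For carcasses, the brightest was Ag.X.81.0_CDS_at, described below. Of the remaining 6 carcass members, Ag.X.1.0_CDS_at read 810.7 to 1873 in two-round carcasses, Ag.X.19.0_CDS_at 103.4 to 214.1, Ag.X.1195.0_at 88.08 to 128.5 and Ag.X.376.0_CDS_at 63.76 to 118.5. The last of them were dim, with Ag.X.187.0_CDS_at at 17.09 to 27.94 and Ag.X.313.0_CDS_at at 15.4 to 33.56. The remaining 3 head members, Ag.X.121.1_CDS_a_at, Ag.X.457.0_CDS_at and Ag.X.732.0_CDS_at, read between 13.11 and 53.23 on head arrays. The remaining 4 hemocyte members, Ag.X.140.0_CDS_at, Ag.X.243.1_CDS_at, Ag.X.292.0_CDS_at and Ag.X.583.0_CDS_at, read between 13.63 and 44.8. All members but the brightest of each tissue are named after their values were seen.

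At the other extreme, 28 X members (2%, against 2.53% of the others) had a mean intensity of 1000 or more in each two-round tissue. Of these, 9 stayed within a 1.5-fold range of the 3 tissue means (32.1% against 29.9%). The most even pair belonged to 1 cluster. Ag.X.141.0_CDS_s_at read 1232, 1209, 1108 and 951.1 in heads, 1235, 1190, 874.8 and 1242 in two-round carcasses, and 1371, 1231, 1113 and 1216 in hemocytes. Ag.X.141.1_s_at read 2223 to 2889 in heads, 2506 to 3033 in two-round carcasses and 2256 to 2995 in hemocytes. The 3 tissues overlapped on both probe sets. In one-round carcasses Ag.X.141.1_s_at was lower, at 1504 to 2622, while Ag.X.141.0_CDS_s_at stayed at 1041 to 1233. The suffix of both leaves room for signal from more than 1 gene.

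The brightest members were bright in all tissues. Ag.X.2.0_UTR_a_at read 6609, 8255, 7321 and 8014 in heads, 6274, 6476, 6356 and 7290 in two-round carcasses, and 7977, 10158, 9729 and 10089 in hemocytes. Ag.X.223.0_CDS_a_at read 7300, 8317, 6685 and 6180 in heads, 10087, 9549, 8980 and 9448 in two-round carcasses, and 4162, 4689, 3835 and 6029 in hemocytes. Their orders differed. On the first, 3 of 4 hemocyte arrays lay above every other array, and on the second the two-round carcass arrays did, with no overlap. In one-round carcasses they read 3805 to 5633 and 7046 to 7901.

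Across heads, two-round carcasses and hemocytes, 368 X probe sets differed (26.2%) by limma's moderated F test at an adjusted p under 0.05 with at least a 2-fold range of the tissue means. Among the other Ag. probe sets the share was 27.7%. Each of the other placed arms lay at 29.9 to 30.5% and UNKN at 11%, so the X was below all 4 arms. Of the 368 members, 173 were highest in hemocytes (47%), 103 in heads (28%) and 92 in carcasses (25%). They were lowest in hemocytes for 143, in heads for 118 and in carcasses for 107. The split was near that of the other probe sets that passed, of which 47.6% were highest in hemocytes, 30.3% in heads and 22.1% in carcasses, and 38.3% were lowest in hemocytes. A range of at least 16-fold was reached by 36 members (2.57%, against 2.38% of the others).

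Hemocytes were set against two-round carcasses to compare circulating blood cells with the rest of the body. On the X, 144 probe sets were higher in hemocytes (10.3%, background 10.8%) and 112 lower (7.98%, background 8.19%). These shares are near the background, which holds the dim UNKN probe sets (3.92% higher, 2.94% lower). The other placed arms had 11.3 to 12.4% higher, each above the X, and 7.78 to 9.98% lower. After quantile normalization the counts were 103 higher (7.34%, background 7.99%) and 113 lower (8.05%, background 8.36%), so the background turned in the same way. The median log2 difference was 0.0304 on the X (0.0214 without two-round carcass replicate 3 and 0.0589 without replicate 4) and 0.0597 elsewhere. At least 16-fold lower in hemocytes were 21 members (1.5%, against 1.54% of the others), and 3 were at least 16-fold higher (0.214% against 0.161%). The third of these beside the named rises was Ag.X.569.0_CDS_at (4.09), named after its value was seen.

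The largest fitted fall belonged to Ag.X.1151.0_s_at. It read 5546, 4983, 4181 and 4824 in two-round carcasses, 3077, 3037, 3591 and 2724 in one-round carcasses, and 1.774, 2.028, 1.841 and 5.645 in hemocytes. All hemocyte values were below background. The log2 difference was -8.02 ± 0.21 (SE, limma, adjusted p = 3.2e-13), and carcasses were at least 379-fold higher. In heads it read 28.86, 23.82, 8.651 and 4.187, above background on 2 of 4 arrays, and the difference to two-round carcasses was -7.31 (adjusted p = 1.2e-12). Ag.X.81.0_CDS_at followed, at 1434, 2339, 2521 and 1743 in two-round carcasses against 2.831, 0.9159, 1.309 and 0.8305 in hemocytes. It was also below background on every head array (1.08 to 1.638), while one-round carcasses read 1213 to 3557. The log2 difference of hemocytes to two-round carcasses was -6.82 ± 0.25 (limma, adjusted p = 9.6e-12), and carcasses were at least 153-fold higher. On both probe sets carcasses, labelled either way, lay above heads and hemocytes with no overlap. For two-round carcasses this follows from the rules that chose these probe sets. One-round carcasses were not used by those rules.

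The largest rise belonged to Ag.X.1055.0_CDS_a_at. It read 3223, 2602, 4276 and 4496 in hemocytes, against 107.5, 50.55, 80.95 and 77.42 in two-round carcasses and 138.5, 124, 87.24 and 82.37 in heads. One-round carcasses, at 74.83 to 117.8, overlapped both. The log2 difference of hemocytes was 5.27 ± 0.22 over two-round carcasses (limma, adjusted p = 3.6e-11) and 4.88 ± 0.22 over heads (limma, adjusted p = 1.9e-10). It was the largest X rise in both. Ag.X.1659.0_at read 1643, 1369, 1944 and 2975 in hemocytes and 72.58, 43.14, 26.59 and 80.51 in two-round carcasses. Its log2 difference was 4.81 ± 0.31 (limma, adjusted p = 5.6e-09). Heads, at 39.65 to 106.1, overlapped the carcasses.

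Between hemocytes and heads, 143 X probe sets were higher in hemocytes (10.2%, background 11.2%) and 116 lower (8.27%, background 9.39%). The other placed arms had 11.8 to 12.9% higher and 9.22 to 10.6% lower, so the X was below each of them in both. The median log2 difference was -0.022 on the X and -0.00277 elsewhere, and the X value was -0.00343 without head replicate 2 and -0.00729 without hemocyte replicate 3. At least 16-fold higher were 6 members (0.428%, against 0.291% of the others), and 13 were at least 16-fold lower (0.927% against 1.06%). This comparison shares the hemocyte arrays with the one before, so the counts are not independent. Without head replicate 4 the counts were 147 (10.5%, background 10.8%) and 114 (8.13%, background 9.33%).

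The largest fall from heads to hemocytes belonged to Ag.X.89.0_CDS_a_at. It read 5683, 4468, 4253 and 4422 in heads and 74.35, 66.02, 47.4 and 53.51 in hemocytes. The log2 difference between them was -5.96 ± 0.16 (limma, adjusted p = 9.4e-13). Two-round carcasses lay between, at 871.7, 1103, 930.4 and 1043, and one-round carcasses read 405.1 to 618. The 4 groups did not overlap. Ag.X.84.0_CDS_at kept the same order of tissues, at 3210, 2315, 1747 and 1623 in heads, 253.7, 308.4, 221.7 and 321.8 in two-round carcasses and 12.08, 2.941, 34.6 and 43.16 in hemocytes. Hemocytes were above background on 2 of 4 arrays, and the log2 difference to heads was -5.93 ± 0.31 (limma, adjusted p = 7.6e-10).

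Ag.X.148.0_CDS_at had the next largest rise over heads after Ag.X.1055.0_CDS_a_at. It read 5888, 3462, 4870 and 4298 in hemocytes and 470.8, 150.5, 93.33 and 73.94 in heads, a log2 difference of 4.76 ± 0.73 (limma, adjusted p = 7.2e-05). Its spread within groups was wide. Carcass replicate 3 read 1208 after 2 rounds and 1682 after 1 round, where the other carcass arrays read 186.1 to 287.9 and 128.7 to 243.6. Hemocytes stayed above every carcass array.

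Between heads and two-round carcasses, 72 X probe sets were higher in heads (5.13%, background 5.01%) and 57 lower (4.06%, background 4.72%). The other placed arms had 4.96 to 5.66% higher and 4.93 to 5.33% lower. The median log2 difference was 0.0311 on the X (0.0175 without head replicate 2 and 0.0574 without two-round carcass replicate 4) and 0.0508 elsewhere. No member was at least 16-fold higher in heads, and 11 were at least 16-fold lower (0.784%). Among the other Ag. probe sets these numbers were 1 (0.00646%) and 112 (0.723%). Without head replicate 4, the counts on the X were 70 (4.99%, background 5.18%) and 52 (3.71%, background 4.41%).

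Beside Ag.X.1151.0_s_at, the rule for falls named Ag.X.771.0_CDS_a_at. It read 1662, 4032, 3184 and 3481 in two-round carcasses and 6.294, 9.852, 8.708 and 8.105 in heads, all below background. The log2 difference was -6.93 ± 0.26 (limma, adjusted p = 1.9e-11), and carcasses were at least 218-fold higher. Unlike the carcass probe sets above, it was measurable in hemocytes, at 47.85, 49.42, 42.5 and 42.26. Its 3 tissue levels were therefore ordered from carcasses over hemocytes to heads, with no overlap. Ag.X.81.0_CDS_at, also below background in heads, was at least 146-fold higher in two-round carcasses than in heads (limma, adjusted p = 1.4e-11). The order of members below background has no measured size and depends on the pseudocount.

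The largest rise in heads belonged to Ag.X.28.0_CDS_a_at, at 1596, 1585, 1543 and 1312 in heads against 84.39, 191.5, 166.1 and 169.6 in two-round carcasses. The log2 difference was 3.22 ± 0.25 (limma, adjusted p = 7.4e-08). Hemocytes read 42.12 to 61.44, below every two-round carcass array. Ag.X.526.0_CDS_at read 1674, 1198, 536 and 843 in heads and 92.47, 106.5, 80.99 and 108.6 in two-round carcasses. The resulting log2 difference was 3.14 ± 0.24 (limma, adjusted p = 8.8e-08). It was below background on all hemocyte arrays (1.273 to 3.184), with heads at least 76.1-fold above them. Both head probe sets were higher in two-round carcasses than in hemocytes. On Ag.X.28.0_CDS_a_at, one-round carcasses (61.41 to 146.1) overlapped hemocytes.

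**Figure D2:**
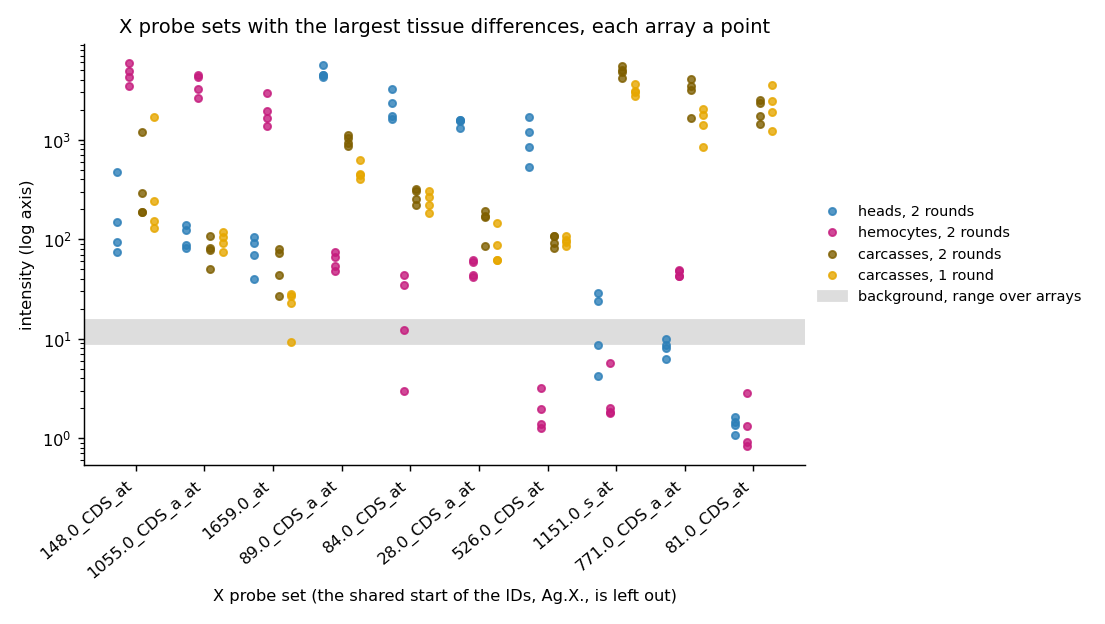
Intensity (log axis) of the 10 X probe sets with the largest rises and falls between two-round tissues, 1 point per array, coloured by group; the grey band is the range of background over the 16 arrays (8.83 to 15.28). The 3 probe sets on the left are highest in hemocytes, the next 4 in heads and the last 3 in carcasses, where Ag.X.1151.0_s_at and Ag.X.81.0_CDS_at are below the band in hemocytes.

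**Figure D3:**
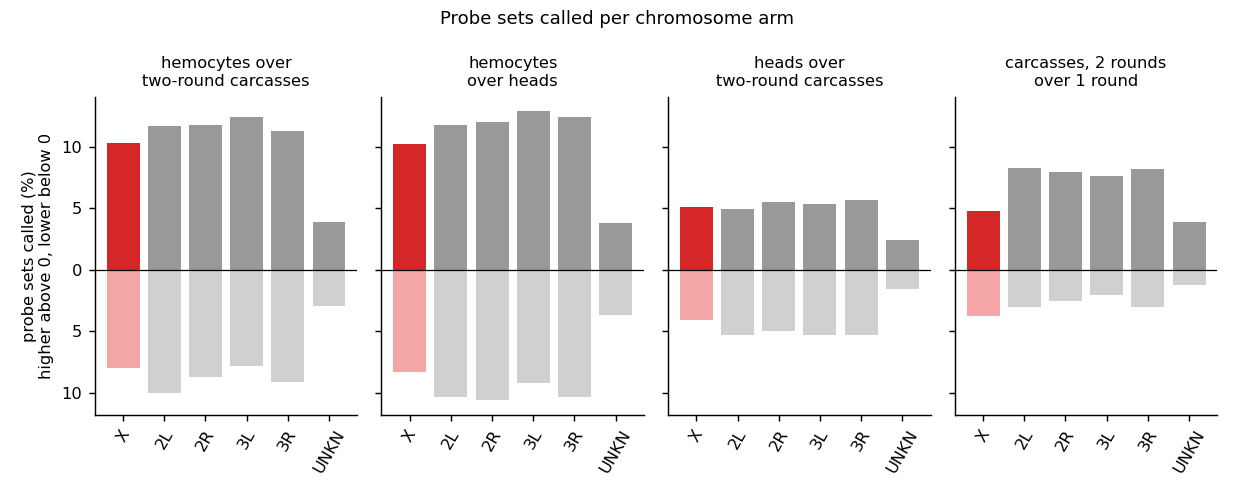
Percent of the probe sets of each arm called higher (above 0) or lower (below 0) in 4 comparisons, the X in red and the other arms in grey. The X bars are close to those of the other placed arms in the 3 tissue comparisons and differ most in the carcass comparison of labellings, at 4.78% higher and 3.71% lower.

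The comparison of the 2 carcass groups addresses the labelling, since tissue, strain and age were the same. Labelling here means the rounds together with the starting RNA (2 rounds from 80 ng, 1 round from 1000 ng). These 2 cannot be told apart. On the X, 67 probe sets were higher after 2 rounds (4.78%, background 7.51%) and 52 were lower (3.71%, background 2.51%). The X had the smallest share of higher calls of the 5 placed arms, where the others had 7.62 to 8.26%, and the largest share of lower calls, where the others had 2.04 to 3.05%. The median log2 difference was 0.0591 on the X and 0.123 elsewhere, where the 4 placed arms had 0.11 to 0.134. The fit with the replicate number as a block gave 68 higher (4.85%, background 7.56%) and 54 lower (3.85%, background 2.54%). Without one-round carcass replicate 3 the counts were 91 higher (6.49%, background 9.81%) and 41 lower (2.92%, background 1.94%). Of the X calls, 56.3% were higher after 2 rounds as deposited, 42.1% after centring each array on its median and 25.7% after quantile normalization. Under quantile normalization 2.57% of the X and 3.57% of the other probe sets were higher, and 7.41% and 4.84% were lower. Thus the split on the X turned with the scaling, while its place relative to the other probe sets did not. Whether the X differs from the rest in this way beyond the spread between arrays was not tested.

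The classes of probe sets behaved differently between the labellings. Marked CDS, 23 X probe sets were higher after 2 rounds (2.06%, against 4.78% of the other CDS probe sets) and 44 lower (3.94% against 2.47%). Marked UTR, 13 X probe sets were higher (19.1% against 23.7%) and 2 lower (2.94% against 2.08%). Among unmarked members 31 were higher (14.3% against 20.6%) and 6 lower (2.76% against 2.92%). The X share of higher calls was thus the smaller one in all 3 classes, but for UTR probe sets this turned without two-round carcass replicate 3 (25% against 23.4%) and with a pseudocount of 64 (17.6% against 16.1%). Under quantile normalization 6 X CDS probe sets were higher (0.537%, against 2.01% of the other CDS probe sets) and 84 lower (7.51% against 4.74%). Without one-round carcass replicate 3 the X CDS counts were nearly even, at 34 higher (3.04% against 6.63%) and 35 lower (3.13% against 1.9%). That array was the brightest of its group, with a median X intensity of 26.8 against 20.43 to 20.76. The median log2 difference was 0.0341 for X CDS (0.00544 without two-round carcass replicate 4) and 0.0987 for other CDS probe sets, while the UTR medians were 0.55 and 0.527 and the unmarked medians 0.347 and 0.318. The array's control probe sets moved with the labelling as well: the ratio of the 3′ to the 5′ actin probe set was 22.3 to 29.4 in two-round and 2.22 to 2.93 in one-round carcasses, and that of Gapdh was 27.3 to 41.2 and 1.41 to 1.93. The part of this 3′ shift in the X result was not tested.

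The largest X fall after 2 rounds was that of Ag.X.80.0_CDS_a_at. It read 73.66, 131.6, 268.1 and 155.5 after 2 rounds and 1138, 1423, 4834 and 2009 after 1 round, a log2 difference of -3.66 ± 0.65 (limma, adjusted p = 0.00072), lower in 4 of 4 replicate pairs. The SE and adjusted p printed for this and the other named probe sets come from the fit without a replicate block, so they do not use the pairing. In heads Ag.X.80.0_CDS_a_at read 5.195, 169.7, 142.1 and 254.7, so replicate 1 stood apart. Ag.X.67.6_UTR_a_at read 596.9, 744.1, 387.4 and 785.5 after 2 rounds and 5787, 6087, 5173 and 5869 after 1 round, a log2 difference of -3.20 ± 0.19 (limma, adjusted p = 1.8e-08). Although marked UTR, it fell in all 4 pairs. The other X UTR probe set lower after 2 rounds came from the same cluster, Ag.X.67.0_UTR_a_at, at -1.21 (limma, adjusted p = 5.7e-05); it was named after its value was seen.

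The largest rise was that of Ag.X.198.0_UTR_at, at 535.1, 651.3, 551.5 and 650.8 after 2 rounds and 37.45, 85.9, 142.7 and 53.23 after 1 round. Its log2 difference was 2.80 ± 0.31 (limma, adjusted p = 1.3e-05), higher in 4 of 4 pairs. Its values in the other two-round groups were of the same size, at 551.5 to 635.6 in heads and 442.3 to 1058 in hemocytes. Ag.X.623.0_CDS_at read 680.4, 643.7, 709.7 and 670.7 after 2 rounds and 113.8, 116.3, 141.2 and 95.83 after 1 round, a log2 difference of 2.39 ± 0.17 (limma, adjusted p = 2.3e-07). Heads (682.8 to 1210) and hemocytes (577.2 to 894.1) also lay far above one-round carcasses. For both probe sets the 2 carcass labellings lay further apart than the tissue means did among the two-round arrays.

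**Figure D4:**
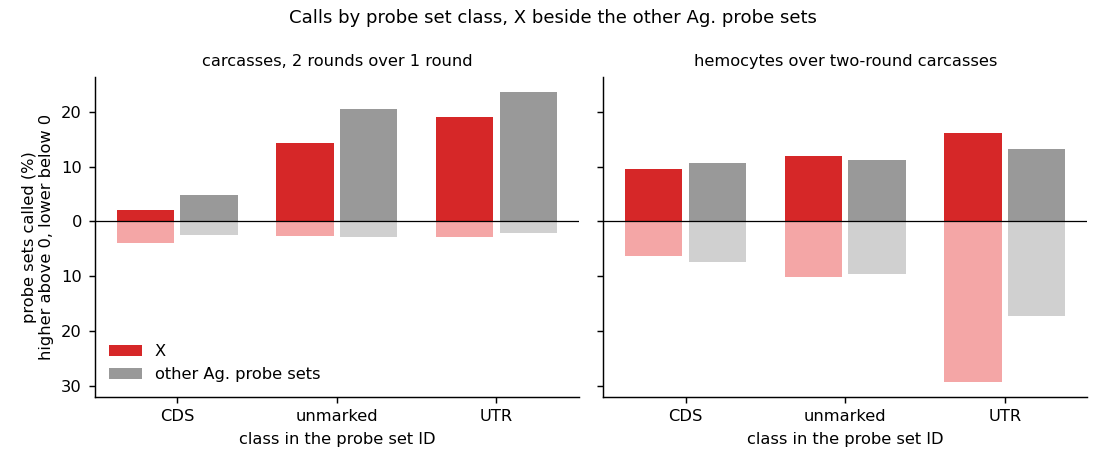
Percent of probe sets called higher (above 0) or lower (below 0) by class, the X in red and the other Ag. probe sets in grey, for the 2 carcass labellings (left) and for hemocytes over two-round carcasses (right). On the left the X has fewer higher calls in every class, which for UTR turns without two-round carcass replicate 3 (25% against 23.4%) and with a pseudocount of 64 (17.6% against 16.1%), and on the right 29.4% of the X UTR probe sets are lower in hemocytes against 17.3% of the other UTR probe sets.

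UTR probe sets were next compared between hemocytes and the other tissues. Set against two-round carcasses, 20 of the 68 were lower in hemocytes (29.4%, against 17.3% of the other UTR probe sets) and 11 were higher (16.2% against 13.2%). The median log2 difference was -0.159 on the X and 0.158 for UTR probe sets elsewhere. The X value was -0.0859 without two-round carcass replicate 4, -0.0956 without hemocyte replicate 1 and -0.261 without two-round carcass replicate 3. The 20 came from 18 clusters. For 19 of them a CDS member of the same cluster was bright, and for 11 of them a CDS member was also lower. Per array, the median level of X UTR probe sets minus that of the other UTR probe sets was -0.756 to -0.49 in hemocytes, -0.273 to -0.203 in heads, -0.0716 to 0.0941 in two-round carcasses and -0.197 to 0.099 in one-round carcasses. Hemocytes did not overlap any other group, and heads did not overlap carcasses. Against heads, the X share did not exceed the rest, with 12 UTR members lower in hemocytes (17.6% against 20.9%) and 7 higher (10.3% against 15.7%). Of the 33 X UTR probe sets that differed between the 3 tissues, 17 were highest in carcasses (51.5%), against 23.5% of such UTR probe sets elsewhere. Whether X and other UTR probe sets differ here beyond the spread between arrays was not tested. The 3′ to 5′ ratio of actin was lower in hemocytes (11.8 to 14.6) than in heads (17.5 to 25.6) and two-round carcasses, whereas that of Gapdh was 36.4 to 59.5 in hemocytes and 37.5 to 102 in heads. Their part in the result was not tested.

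Probe sets of the same X cluster were compared to see how far 1 transcript group gives 1 answer. Of the 118 clusters with more than 1 bright member, the median range of the members' log2 differences was 0.486 for hemocytes over two-round carcasses, 0.539 for hemocytes over heads, 0.311 for heads over two-round carcasses and 0.687 between the labellings. The labelling thus parted members of a cluster the most. A member was called in 53, 45, 17 and 34 clusters in these comparisons, and every bright member was called the same way in 18, 20, 10 and 2 of them. Clusters of the other Ag. probe sets were not counted, so whether the X differs from them here was not tested. Opposite calls within a cluster did not occur in the 3 tissue comparisons and occurred in 2 clusters between the labellings. These were Ag.X.198, described next, and Ag.X.16, which was named after its values were seen. There the UTR member rose by 1.12 after 2 rounds (limma, adjusted p = 0.0002) while a CDS member with the suffix _a_at fell, at -1.28 (limma, adjusted p = 0.00011), and another with the suffix _s_at, at -0.28, did not pass.

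In 63 X clusters both a CDS and a UTR member were bright, and where several pairs were possible the pair with the widest gap was taken. The log2 difference of 2 rounds over 1 round was higher for the UTR than for the CDS member in 56 of them and lower in 7. The same count was not made for the other Ag. probe sets. Their median difference was also higher for UTR (0.527) than for CDS probe sets (0.0987), so this is not particular to the X. The UTR minus CDS gap had a median of 0.977 and ran from -0.486 to 3.81, and it was at least 1 in 30 clusters. The widest gap was in cluster Ag.X.198, where Ag.X.198.0_UTR_at rose by 2.80 and Ag.X.198.0_CDS_at read 21.41, 23.07, 10.22 and 25.15 after 2 rounds against 34.16, 45.65, 97.77 and 57.97 after 1 round. The log2 difference of that CDS probe set was -1.01 ± 0.22 (limma, adjusted p = 0.0031), and it was no longer called without replicate 3 (-0.787) or 4 (-0.994) of one-round carcasses or replicate 3 of two-round carcasses (-0.866). In cluster Ag.X.169 the UTR probe set Ag.X.169.0_UTR_a_at read 528.5, 678.9, 366.3 and 511.9 after 2 rounds and 255.3, 283.5, 303.8 and 226.5 after 1 round, a log2 difference of 0.90 ± 0.21 (limma, adjusted p = 0.0046) that stayed under 2-fold. Its CDS partner Ag.X.169.0_CDS_a_at read 15.74, 27.42, 4.989 and 2.213 after 2 rounds and 109.8, 124, 106.4 and 101.8 after 1 round. That is a log2 difference of -2.23 ± 0.29 (limma, adjusted p = 4.9e-05), with the two-round carcass arrays above background on 2 of 4.

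**Figure D5:**
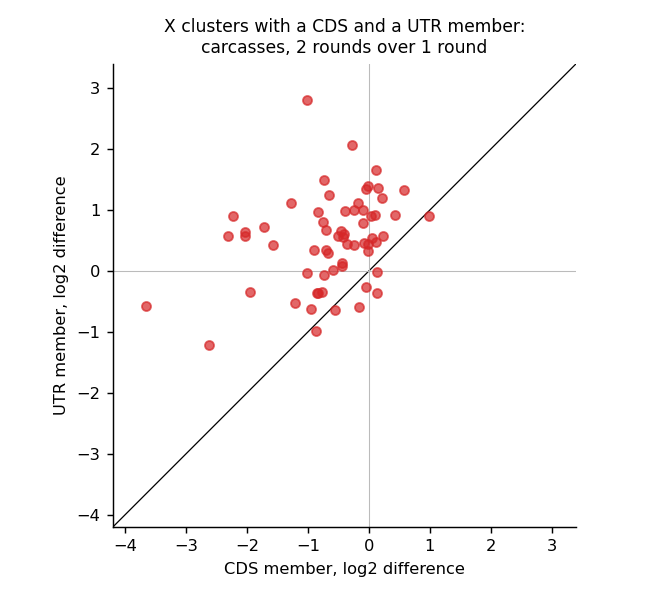
Log2 difference of two-round over one-round carcasses for the UTR member (vertical axis) and the CDS member (horizontal axis) of X clusters in which both are bright, 1 point per cluster, with the line of equal values. In 56 of 63 clusters the point lies above the line.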

How the data were processed

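The authors deposited intensity values on a linear scale for 22761 probe sets and 16 arrays, and used GCOS 1.4 per the submitters' processing notes. How probes were summarised and arrays scaled is not given in the sources used here. No value was at or below 0. Probe sets carry only array IDs.

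The X members and all lists were chosen with earlier results of these data known. Values were taken as log2(intensity + 16), with no further normalization, so fold changes of dim probe sets are understated. With limma 3.58.1 (lmFit and eBayes, under R 4.3.3), 16884 Ag. probe sets were fitted in one model of 4 groups, which left 12 residual degrees of freedom, with Benjamini-Hochberg adjustment per comparison. Calls needed an adjusted p under 0.05 and at least 2-fold. The fit was tested on simulated data. Summaries used Python 3.11.15 with numpy 2.4.6 and pandas 2.3.3, and figures matplotlib 3.10.9. The files give no scan date or slide that could be tested as a batch.

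Named probe sets are, per comparison, the 2 largest rises and 2 largest falls among X calls with no overlap of the compared arrays; the 2 brightest members over the 12 two-round arrays; the 2 most even members at 1000 or more in each two-round tissue; the brightest member restricted to each tissue; and the 2 clusters whose CDS and UTR members differ most between labellings. Replicate numbers were taken to pair the 2 carcass groups, because same-numbered arrays deviated together in every pair (r from 0.242 to 0.54). They did not pair the other groups. Alternatives were pseudocounts of 1 and 64, median centring, quantile normalization, bright probe sets only, a replicate block, fits of the compared groups only, one-round carcasses as the reference, the 99th percentile as background and leaving out each array. Added after seeing the data were counts without _s_at and _x_at probe sets, CDS probe sets alone, a carcass fit of 2 groups with the block, and leaving out arrays for the X level. Sequences and gene names were not used here.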

Additional observations from a re-analysis of the deposited data

Results flagged for a closer look

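In each group of 4 arrays, the highest and the lowest value were checked for a gap to the others that is large against the group's range. Of 104 such groups of values, 9 had a value far from the rest, where chance gives about 1 in 20. The X share of the summed intensity was 6.115% on head replicate 1, against 5.871 to 5.879% on the other head arrays. On the same array Ag.X.89.0_CDS_a_at read 5683, against 4253 to 4468, and head replicate 4 read 1312 for Ag.X.28.0_CDS_a_at, against 1543 to 1596. In hemocytes, replicate 2 was high for a pair of CDS probe sets that fell after 2 rounds, Ag.X.80.0_CDS_a_at at 27.38 (others 5.048 to 6.495) and Ag.X.169.0_CDS_a_at at 34.16 (others 6.637 to 9.519). Hemocyte replicate 4 read 5.645 for Ag.X.1151.0_s_at, against 1.774 to 2.028, all below background. Replicate 4 of both carcass groups was high for the head probe set Ag.X.753.0_CDS_at, at 8.255 after 2 rounds (others 3.36 to 3.89) and 11.1 after 1 round (others 4.078 to 4.533). Two-round carcass replicate 3 read 874.8 for Ag.X.141.0_CDS_s_at, against 1190 to 1242.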

How the results depend on the processing

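A pseudocount of 64 lowered the counts on the X to 82 higher and 69 lower for hemocytes over carcasses (5.84% and 4.92%, others 6.49% and 5.26%). For hemocytes over heads they were 93 and 64 (6.63% and 4.56%, others 7.54% and 5.58%). Heads over carcasses had 35 and 34 (2.49% and 2.42%, others 2.78% and 2.98%). Between labellings they were 37 and 20 (2.64% and 1.43%, others 3.68% and 1.06%). The F test passed 213 members, and the others were not counted for it in this setting. A pseudocount of 1 gave 195 lower for hemocytes over heads (13.9%, others 13.8%, X median -0.0609). Between labellings it gave 121 higher and 83 lower (8.62% and 5.92%, others 11.6% and 3.95%). Against one-round carcasses, 220 members were higher in hemocytes (15.7%, against 19% of the others) and 138 lower (9.84% against 8.93%). In heads, 152 were higher (10.8% against 13.6%) and 105 lower (7.48% against 6.27%). With this reference the X thus had a smaller share of higher calls and a larger share of lower calls than the others. Labelling differs along with tissue here, and the part of each was not tested. Median centring moved the X medians to 0.129, 0.128 and, between labellings, -0.0537, while the medians of the other probe sets moved to 0.159, 0.147 and 0.00988. Quantile normalization gave a median of 0.0259 for hemocytes over heads. Between labellings it gave 36 higher and 104 lower on the X (2.57% and 7.41%, others 3.57% and 4.84%). By class these included 6 higher and 84 lower CDS members (0.537% and 7.51%, others 2.01% and 4.74%). Among UTR members 6 were higher and 5 lower (8.82% and 7.35%, others 9.14% and 4.29%), and 15 unmarked members were lower (6.91%, others 5.72%). For hemocytes over carcasses quantile normalization gave 7 UTR (10.3%, others 9%) and 17 unmarked members (7.83%, others 7.87%) higher. In all these settings the X median stayed below that of the other probe sets between labellings, by 0.0269 to 0.158.

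The X level in heads, two-round carcasses, hemocytes and one-round carcasses was -0.152, -0.132, -0.137 and -0.07 without UNKN. With bright probe sets only it was -0.0846 in two-round carcasses, -0.0811 in hemocytes and 0.0269 in one-round carcasses. With CDS probe sets only these were -0.0675, -0.0633 and 0.0127. In one-round carcasses it was 0.0985 and 0.0254 with pseudocounts of 1 and 64. Carcass-only members numbered 11 with the 99th percentile as background.

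Leaving out 1 array gave 4 to 7 head-only members (7 without head replicate 2) and 5 to 8 hemocyte-only members (8 without hemocyte replicate 2 or 4). For hemocytes over carcasses counts stayed within 137 to 150 higher (9.76 to 10.7%, others 9.77 to 11.7%) and 108 to 114 lower (7.7 to 8.13%, others 7.96 to 8.38%). Hemocytes over heads had 139 to 157 (9.91 to 11.2%, others 10.3 to 11.8%) and 114 to 132 (8.13 to 9.41%, others 9.11 to 9.79%). Heads over carcasses had 67 to 78 (4.78 to 5.56%, others 4.79 to 5.37%) and 52 to 60 (3.71 to 4.28%, others 4.31 to 4.96%). Between labellings they were 57 to 91 (4.06 to 6.49%, others 6.39 to 9.81%) and 41 to 58 (2.92 to 4.13%, others 1.94 to 2.73%). The replicate block gave 68 higher and 54 lower between the paired carcass groups (4.85% and 3.85%, others 7.56% and 2.54%). With those groups alone it gave 70 and 55 (4.99% and 3.92%, others 7.82% and 2.65%). It left the counts of the other 3 comparisons, where numbers do not pair the arrays, at 144 and 112, 143 and 116, and 72 and 57. Among named probe sets no direction turned. Ag.X.339.0_CDS_at was no longer called with a pseudocount of 64 (0.615 and 0.703), nor was Ag.X.198.0_CDS_at (-0.527), which also lost its call without replicate 3 or 4 of one-round carcasses or replicate 3 of two-round carcasses (-0.787, -0.994 and -0.866). Ag.X.169.0_UTR_a_at passed 2-fold without two-round carcass replicate 3 (1.05).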
